A study of Mus musculus with 6 samples.

Results

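The nuclear genes of oxidative phosphorylation were followed in the epidermis of the mouse ear, complex by complex. Members were taken by symbol from the deposited expression table: the NDUFA, NDUFB, NDUFC, NDUFS and NDUFV genes for complex I, SDHA to SDHD for complex II, the UQCR genes and CYC1 for complex III, the COX4I1 to COX8A genes for complex IV, and all ATP5 genes for complex V. This gave 83 genes of 20522 in the table, with 38 in complex I, 4 in complex II, 9 in complex III, 15 in complex IV and 17 in complex V. The rule used symbols and no measured value. RNA sequencing covered 6 libraries from the ears of female C57BL6/N mice aged 8 weeks. The ETA sheets (n = 3) are the upper epidermis, with the granular cells called SG1 and SG2, lifted off with exfoliative toxin A, a bacterial protease that cuts desmoglein 1. The epidermal sheets (n = 3) are the whole epidermis, freed from the dermis with dispase. An epidermal sheet therefore also holds the layer that an ETA sheet samples, and the 2 kinds of sheet differ in solution as well as in layer, which cannot be told apart.

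Oxidative phosphorylation makes most of the ATP of a respiring cell at the inner membrane of the mitochondrion. Complex I takes electrons from NADH and complex II, which is also the succinate dehydrogenase of the citric acid cycle, takes them from succinate. Complex III passes them through cytochrome c to complex IV, which reduces oxygen, and complex V, the ATP synthase, uses the proton gradient that complexes I, III and IV build. The subunits studied here are encoded in the nucleus, while the mitochondrial genome encodes the others, which were not analysed here. Granular keratinocytes are the last living layer of the epidermis before cornification, in which the cell loses its nucleus and its mitochondria.

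Expression is given in TPM, which divide reads by transcript length and share out the same total, 1000000, in every library, so levels of different genes can be compared and sequencing depth is unknown. Marker genes separated the sheets as labelled: 6 basal keratinocyte markers summed to 183 ± 44.0 TPM in ETA sheets and 15832 ± 1203 TPM in epidermal sheets, and 6 granular markers to 127406 ± 9513 TPM in ETA sheets and 6280.3 ± 1104 TPM in epidermal sheets (mean ± SD, n = 3 each). The 10 most abundant genes took 25.9% to 31.4% of the TPM of an ETA sheet library and 10.4% to 10.7% of that of an epidermal sheet library. The median tested gene stood 1.49 lower in ETA sheets on the log2 scale. The main counts are therefore given both as deposited and relative to the median gene of each library. ETA sheet replicate 2 stood apart, with 209 genes of at least 10 TPM on average listed at exactly 0, against 12 to 30 in the other 5 libraries. It was also the lowest of the 3 ETA sheets for 65 of the 81 tested members. ETA sheet replicate 1 was the highest of the 3 for 71 of the 81. The median tested gene stood at 2.97, 2.50 and 2.50 on the log2 scale in ETA sheet replicates 1 to 3. By general level, replicate 1 was thus the library that differed. The kind of sheet named in the column header differed from the sample title in 2 libraries and only the sheet number in another 2. Titles set the groups used here. Grouped by header instead, limma called 0 of 11683 genes (87 at an unadjusted p under 0.05) and 0 members (2 at an unadjusted p under 0.05).

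Nearly every nuclear gene of oxidative phosphorylation was lower in ETA sheets than in epidermal sheets, and 1 was higher. Of the 83 members 81 averaged at least 1 TPM and were tested with limma on log2(TPM + 1), and 77 of them were called lower in ETA sheets and 1 higher at an adjusted p under 0.05. Over all 11683 tested genes 63.6% were called lower and 10.1% higher, so a fall by itself was common. In 77 members every ETA sheet lay below every epidermal sheet and in 1 above, as in 66.0% and 10.9% of all tested genes. The median log2 fold change was -1.92 over the members and -1.34 over all genes, a gap of 0.59, and 71 of the 81 members lay below the all-gene median. Relative to the median gene of each library 30 members were called lower and 6 higher, where 18.8% of all genes were called lower and 29.1% higher. With trimmed-mean scaling, which aligns the libraries on the bulk of their genes, 28 members were called lower and 6 higher. In bulk sheets, fewer cells of a type and less RNA per cell cannot be told apart.

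**Figure D1:**
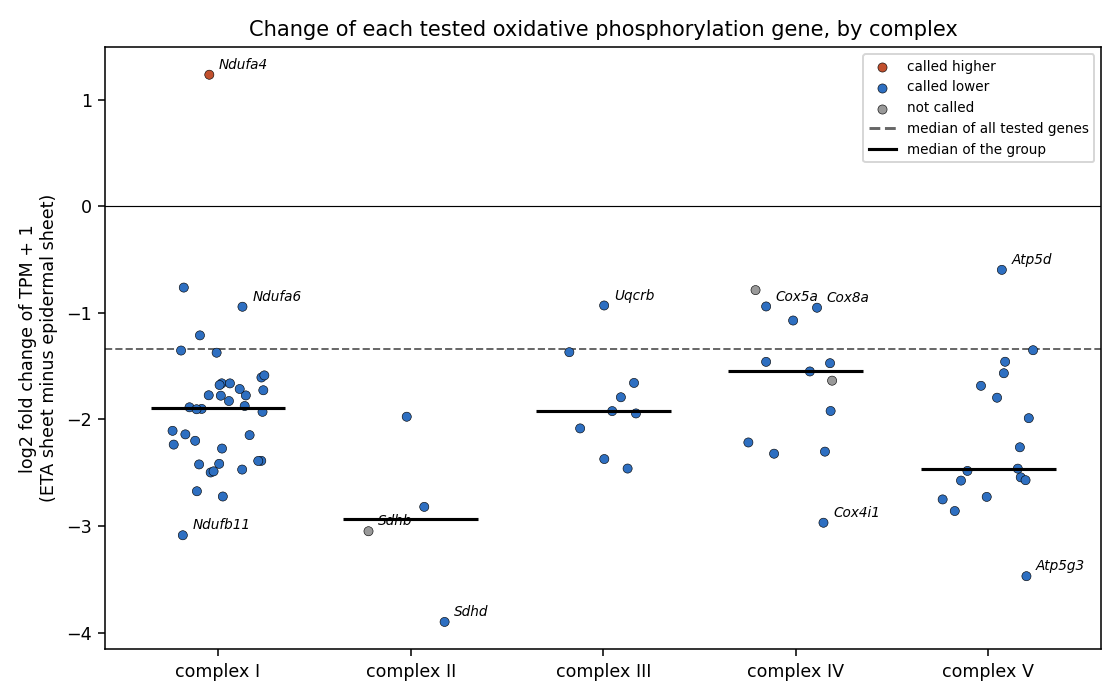
Log2 fold change of TPM + 1 (ETA sheet minus epidermal sheet) of each of the 81 tested members, by complex, with colours for the limma call, black bars for the median of a complex and a dashed line for the median of all tested genes at -1.34. Ndufa4 at 1.23 is the only point above 0, and the medians of complexes II and V, at -2.94 and -2.46, lie lowest.

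The complexes differed in how far they fell. Complex II had the lowest median log2 fold change, -2.94 over 4 genes, of which 3 were called lower. Complex V followed with -2.46 over 17 genes, all 17 called lower. Complex III stood at -1.92 with all 9 called lower, and complex I at -1.89 with 37 of 38 called lower. Complex IV moved least, with a median of -1.55 and 11 of 13 tested genes called lower. Relative to the median gene, 2 of 4 genes were called lower in complex II, 9 of 17 in complex V, 3 of 9 in complex III, 11 of 38 in complex I and 5 of 13 in complex IV. In the same fit 1 gene of complex V, 1 of complex III, 2 of complex I and 2 of complex IV were called higher.

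Summed over its members, each complex held less of the transcript pool in ETA sheets. All 83 members together took 0.907 ± 0.171% of the TPM in ETA sheets, against 2.44 ± 0.0892% in epidermal sheets (mean ± SD, n = 3 each). Complex V summed to 2403, 1310 and 1922 TPM in the ETA sheets, against 7659, 7335 and 7801 TPM in the epidermal sheets, a 4.05-fold lower mean. Complex III summed to 963, 739 and 814 TPM in the ETA sheets, against 2753, 2582 and 2676 TPM in the epidermal sheets, 3.19-fold lower. Complex IV summed to 2237, 1483 and 1877 TPM in the ETA sheets, against 6111, 5716 and 5848 TPM in the epidermal sheets, 3.16-fold lower. In none of these did the groups overlap, and replicate 2 was the lowest ETA sheet in all 3. Complex II was the scarcest, with 60.2, 34.3 and 49.2 TPM in the ETA sheets, against 414, 432 and 304 TPM in the epidermal sheets, 8.0-fold lower and again without overlap. Complex I summed to 5361, 4283 and 3689 TPM in the ETA sheets, against 8469, 7628 and 7491 TPM in the epidermal sheets, only 1.77-fold lower. That small difference rested on Ndufa4: without it complex I summed to 2345, 1376 and 1777 TPM in the ETA sheets, against 7205, 6574 and 6523 TPM in the epidermal sheets, 3.69-fold lower. Ndufa4 is counted in complex I by its symbol though now assigned to complex IV, so the complex IV sums leave it out. Each of these differences had p = 0.1 in a two-sided exact permutation test, which is the smallest p that 3 against 3 libraries allow. Nothing in the labels ties the 3 sheets of a kind to separate mice, so every p-value here speaks only of the spread among these libraries, part of which may be technical.

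**Figure D2:**
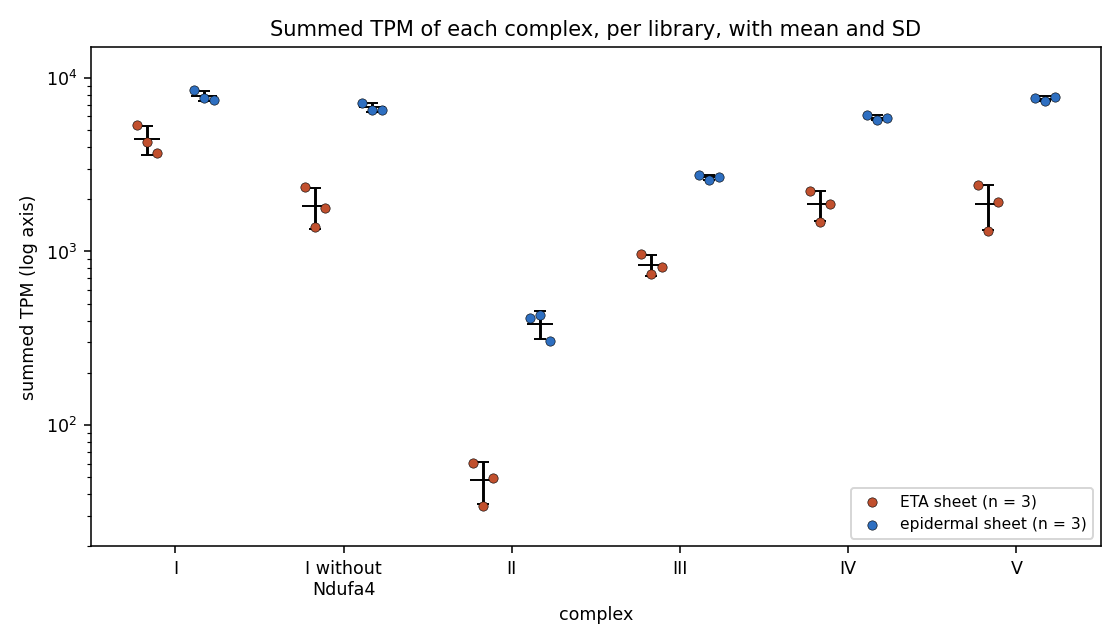
Summed TPM of each complex per library on a log axis, ETA sheets left and epidermal sheets right of each pair, with the mean and SD as black bars (n = 3 each). Every ETA sheet lies below every epidermal sheet, and the gap for complex I widens from 1.77-fold to 3.69-fold once Ndufa4 is left out.

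Ratios within a library do not depend on how that library was scaled, and they showed that the complexes did not fall in proportion. The log2 ratio of complex II to complex V was -5.32, -5.25 and -5.29 in the ETA sheets, against -4.21, -4.09 and -4.68 in the epidermal sheets, a difference of -0.96. For complex III the ratio was -1.32, -0.83 and -1.24 in the ETA sheets, against -1.48, -1.51 and -1.54 in the epidermal sheets, a difference of 0.38. Complex IV, counted by symbol and so without Ndufa4, also gave a difference of 0.38. Its ratio was -0.10, 0.18 and -0.03 in the ETA sheets, against -0.33, -0.36 and -0.42 in the epidermal sheets. Complex II thus stood lower relative to the ATP synthase in every ETA sheet, and complexes III and IV higher. Complex I over complex V differed by 1.22 (1.16, 1.71 and 0.94 in the ETA sheets, against 0.15, 0.06 and -0.06 in the epidermal sheets). Without Ndufa4 that difference was 0.14 and the groups overlapped (exact permutation p = 0.2). Each of the 4 ratios with all members had p = 0.1 in the exact permutation test, also after Benjamini-Hochberg adjustment over the 4. Averaging log2(TPM + 1) over the members in place of summing TPM gave differences of 0.31 for complex I, -0.75 for complex II, 0.35 for complex III and 0.52 for complex IV.

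**Figure D3:**
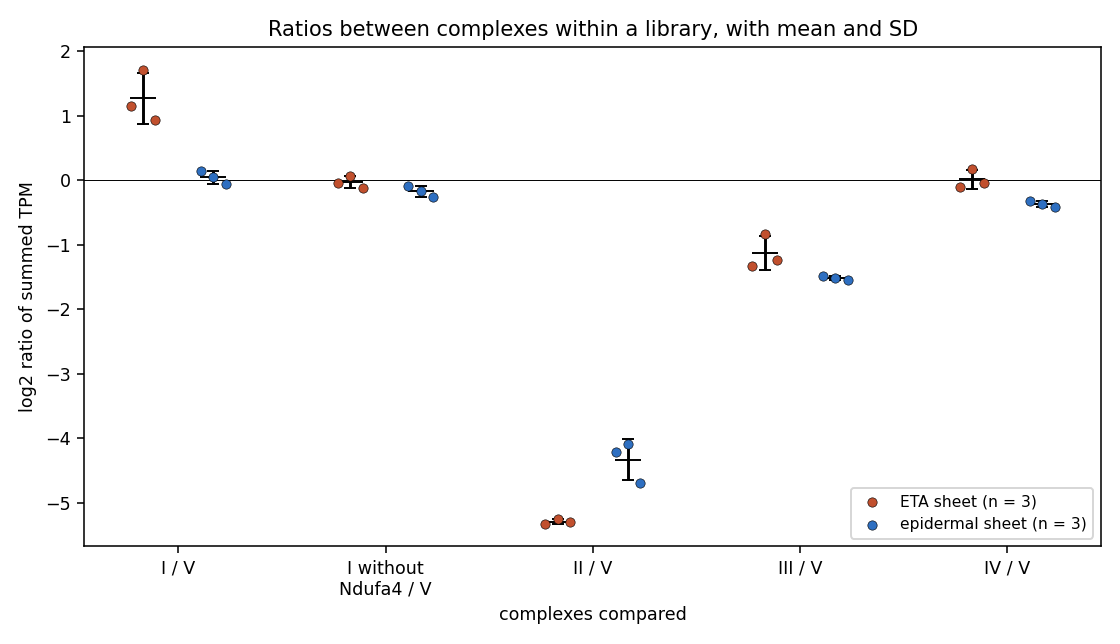
Log2 ratio of the summed TPM of complexes I to IV to that of complex V within each library, ETA sheets left and epidermal sheets right, with the mean and SD as black bars (n = 3 each). The ETA sheets lie below the epidermal sheets for complex II and above them for complexes III and IV, and for complex I the gap closes to 0.14 without Ndufa4.

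Within complex I, the 7 subunits of the catalytic core, which carry the flavin and the iron-sulfur clusters, moved as a narrow group. All 7 were called lower, with log2 fold changes between -2.39 for Ndufv1 and -1.73 for Ndufs3 and a median of -1.91. Ndufv1, which binds NADH, had 28.3, 21.8 and 22.8 TPM in the ETA sheets, against 126, 128 and 138 TPM in the epidermal sheets. The groups lay far apart and the log2 fold change was -2.39 ± 0.19 (SE, limma adjusted p = 2.72e-05). Besides Ndufa4, the other 30 genes were all called lower with a median of -1.89, but spread more widely, between -3.09 for Ndufb11 and -0.76 for Ndufa11. They encode accessory subunits, which surround the core and help to assemble it, and include Ndufa4l2 by its symbol only. Ndufb11, an accessory subunit of the membrane arm, had 74.3, 22.6 and 40.5 TPM in the ETA sheets, against 380, 385 and 306 TPM in the epidermal sheets. All ETA sheets were well below, and the log2 fold change of -3.09 ± 0.38 (SE, limma adjusted p = 0.000175) was the most negative of the complex. At the other end Ndufa11, also of the membrane arm, had 9.11 to 14.6 TPM in the ETA sheets, against 16.1 to 27.7 TPM in the epidermal sheets. It was called lower only narrowly (-0.76 ± 0.29 SE, limma adjusted p = 0.0384), and relative to the median gene it stood at 0.73 and was not called. The call as deposited was also lost with no filter on low values, with a replicate block, with the largest transcript, with either other scaling, with the header names as groups, and without ETA sheet replicate 2 or 3 or epidermal sheet replicate 1 or 2. Ndufa6, an accessory subunit of the LYR family, had 223, 149 and 141 TPM in the ETA sheets, against 346, 349 and 278 TPM in the epidermal sheets. It did not overlap between groups and was called lower as deposited (log2 fold change -0.94 ± 0.22 SE, limma adjusted p = 0.0047), but higher relative to the median gene (0.55) and under trimmed-mean scaling (0.57). With the 100 most abundant genes removed before scaling, its fall was not called (-0.40, limma adjusted p = 0.0937).

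Ndufa4 was the one member that rose as deposited. It was named as a complex I subunit and is now assigned to complex IV, where it was not counted here. Ndufa4 had 3016, 2907 and 1912 TPM in the ETA sheets, against 1264, 1054 and 968 TPM in the epidermal sheets. These values exceeded the complex IV sum in every ETA sheet and lay below it in every epidermal sheet. Counted in complex IV, Ndufa4 would make the fall of that complex smaller and the difference in its ratio to complex V larger. The lowest ETA sheet, replicate 3, was still above every epidermal sheet, and the mean was 2.39-fold higher in ETA sheets (log2 fold change 1.23 ± 0.22 SE, limma adjusted p = 0.00112), and relative to the median gene the difference was 2.73. Ndufa4 was the most abundant of the 83 members in all 6 libraries, and its share of the members' summed TPM was 27.4%, 37.0% and 22.9% in the ETA sheets, against 4.98%, 4.45% and 4.01% in the epidermal sheets. Set against Cox6a1, the next most abundant member by the mean of the ETA sheets though not in any single one, its log2 ratio was 2.84, 3.56 and 2.63 in the ETA sheets, against 0.49, 0.36 and 0.09 in the epidermal sheets (difference 2.70, exact permutation p = 0.1). Its paralog Ndufa4l2, known as a target of hypoxia-inducible factor, went the other way and had 0.948, 0 and 2.35 TPM in the ETA sheets, against 20.9, 3.85 and 16.7 TPM in the epidermal sheets. The groups did not overlap, although epidermal sheet replicate 2 came close (log2 fold change -2.72 ± 0.65 SE, limma adjusted p = 0.00512), and relative to the median gene it was not called. Another relative, listed as AA467197, had 6.64, 0 and 0.905 TPM in the ETA sheets and was listed at 0 in all 3 epidermal sheets (limma adjusted p = 0.129).

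**Figure D4:**
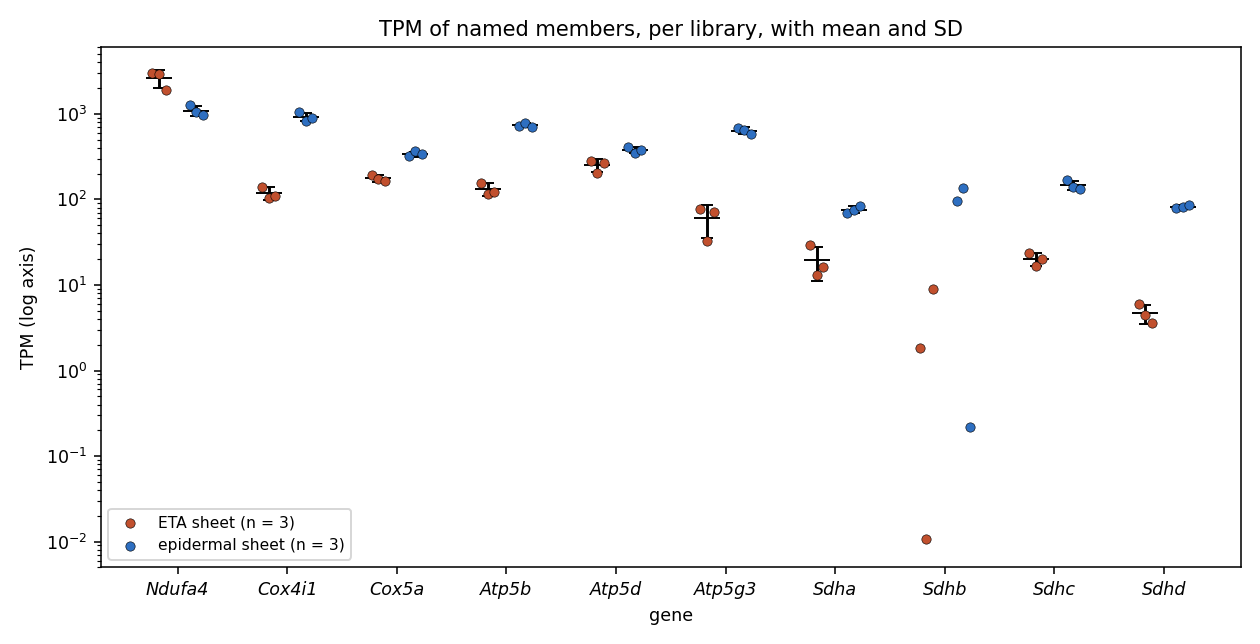
TPM per library of 10 members on a log axis, ETA sheets left and epidermal sheets right of each pair, with the mean and SD as black bars (n = 3 each) except for Sdhb, whose value moves between a named and an unnamed transcript. Ndufa4 is the only gene with its ETA sheets above its epidermal sheets, Atp5d and Cox5a show small gaps, and Sdhd and Atp5g3 wide ones.

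In complex II the 2 membrane anchor subunits fell further than the flavoprotein. Sdhd, the small anchor subunit that helps to bind haem and ubiquinone, had 5.92, 4.47 and 3.63 TPM in the ETA sheets, against 80.1, 80.7 and 87.1 TPM in the epidermal sheets. The values within each group were close and the mean was 17.7-fold lower in ETA sheets, with the most negative log2 fold change of all members (-3.90 ± 0.23 SE, limma adjusted p = 9.79e-06; -2.41 relative to the median gene). Sdhc, the other anchor subunit, had 23.4, 16.6 and 20.2 TPM in the ETA sheets, against 168, 140 and 133 TPM in the epidermal sheets. It was 7.34-fold lower with no overlap (log2 fold change -2.82 ± 0.21 SE, limma adjusted p = 2.08e-05; -1.33 relative to the median gene). Sdha, the flavoprotein that oxidises succinate, had 29.1, 13.2 and 16.4 TPM in the ETA sheets, against 69.0, 75.9 and 83.0 TPM in the epidermal sheets. It was 3.88-fold lower (log2 fold change -1.98 ± 0.29 SE, limma adjusted p = 0.000438) and was not called relative to the median gene. Sdhd over Sdha gave a log2 ratio of -2.30, -1.57 and -2.17 in the ETA sheets, against 0.21, 0.09 and 0.07 in the epidermal sheets (difference -2.14, exact permutation p = 0.1). The anchor was thus about level with the flavoprotein in epidermal sheets and well below it in every ETA sheet.

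Sdhb, the iron-sulfur subunit, was read in a way that depends on how transcripts were named. Under its symbol it had 1.82, 0.0106 and 9.01 TPM in the ETA sheets, against 96.9, 135 and 0.218 TPM in the epidermal sheets, so the groups overlapped and it was not called (limma adjusted p = 0.129). A second Sdhb transcript carries no symbol in the table, and it held 128 TPM in epidermal sheet replicate 3, the library in which the named transcript was nearly absent. With both transcripts counted Sdhb had 16.4, 7.46 and 9.01 TPM in the ETA sheets, against 96.9, 135 and 128 TPM in the epidermal sheets. The groups were then separate (log2 fold change -3.39 ± 0.30 SE, limma adjusted p = 3.05e-05), a value between those of Sdhd and Sdhc, and 78 members were called lower in all. On that reading complex II summed to 74.8, 41.8 and 49.2 TPM in the ETA sheets, against 414, 432 and 432 TPM in the epidermal sheets, 7.71-fold lower, and its log2 ratio to complex V differed by -0.94. Sdhd lies head to head with Timm8b, a chaperone of the intermembrane space, with 52 bases between their starts in GRCm38. Timm8b had 28.5, 15.4 and 18.5 TPM in the ETA sheets, against 70.0, 49.1 and 127 TPM in the epidermal sheets. It was lower as well but by less (log2 fold change -1.87 ± 0.37 SE, limma adjusted p = 0.00201), and the log2 ratio of Sdhd to Timm8b differed by -2.26 with no overlap between groups (exact permutation p = 0.1).

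In complex III all 9 genes were called lower as deposited, beside 63.6% of all genes. Relative to the median gene 3 were called lower, 1 was called higher and 5 were not called. Its 4 larger proteins, Cyc1 (cytochrome c1), Uqcrfs1 (the Rieske iron-sulfur protein), Uqcrc1 and Uqcrc2 (the core proteins), had a median log2 fold change of -2.15, and its 5 small accessory subunits a median of -1.79. Uqcrc2 had 39.8, 18.2 and 25.0 TPM in the ETA sheets, against 129, 157 and 164 TPM in the epidermal sheets. It moved most in the complex, with no overlap (log2 fold change -2.46 ± 0.28 SE, limma adjusted p = 0.000136; -0.97 relative to the median gene). Uqcrb, a small subunit at the ubiquinone site, had 266, 223 and 274 TPM in the ETA sheets, against 483, 472 and 498 TPM in the epidermal sheets. It moved least (log2 fold change -0.93 ± 0.16 SE, limma adjusted p = 0.000964) and stood higher relative to the median gene (0.56) and under trimmed-mean scaling (0.58).

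In complex IV, subunits that sit side by side in the enzyme differed widely. Cox4i1, the largest nuclear subunit, had 141, 103 and 109 TPM in the ETA sheets, against 1046, 834 and 895 TPM in the epidermal sheets. It was 7.85-fold lower (log2 fold change -2.97 ± 0.19 SE, limma adjusted p = 1.25e-05; -1.48 relative to the median gene), and its rank among the 83 members was 17 in ETA sheets and 2 in epidermal sheets. Cox5a, which joins Cox4i1 early in assembly, had 195, 172 and 164 TPM in the ETA sheets, against 318, 364 and 337 TPM in the epidermal sheets. Its groups were also separate, but it was only 1.92-fold lower (log2 fold change -0.94 ± 0.16 SE, limma adjusted p = 0.000955), and it was higher relative to the median gene (0.55) and under trimmed-mean scaling (0.57). Cox4i1 over Cox5a gave a log2 ratio of -0.46, -0.74 and -0.59 in the ETA sheets, against 1.72, 1.19 and 1.41 in the epidermal sheets (difference -2.04, exact permutation p = 0.1). Cox4i1 was the less abundant of the pair in every ETA sheet and the more abundant in every epidermal sheet. Cox8a, a small membrane subunit, followed Cox5a with 364, 267 and 308 TPM in the ETA sheets, against 655, 555 and 599 TPM in the epidermal sheets (log2 fold change -0.95 ± 0.18 SE, limma adjusted p = 0.00141). It too was higher relative to the median gene (0.54) and under trimmed-mean scaling (0.56).

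Several subunits of complex IV come as a widely expressed form and a form typical of heart and skeletal muscle. The widely expressed forms carried nearly all of the signal. Cox6a1, the most abundant member of the complex over the 6 libraries, had 422, 247 and 308 TPM in the ETA sheets, against 903, 820 and 910 TPM in the epidermal sheets, and was called lower as deposited (log2 fold change -1.46 ± 0.21 SE, limma adjusted p = 0.000425), with 0.05 under trimmed-mean scaling. The muscle form Cox6a2 had 0.80, 0 and 0.436 TPM in the ETA sheets, against 2.17, 3.19 and 0 TPM in the epidermal sheets, and was not called (limma adjusted p = 0.253). The muscle form Cox7a1 had 0, 0 and 1.20 TPM in the ETA sheets, against 5.90, 8.60 and 0 TPM in the epidermal sheets, and was not called either (limma adjusted p = 0.102). Both were at 0 in epidermal sheet replicate 3, and without that library both were called lower (-1.41 for Cox6a2 and -2.65 for Cox7a1). That setting removes the epidermal library whose values go against a fall, so no conclusion is drawn from these calls. Both averaged under 1 TPM in ETA sheets (0.412 and 0.401) and passed the filter through the epidermal sheets. Cox7a2, the widely expressed form, fell by 1.07 on the log2 scale as deposited but turned to 0.43 under trimmed-mean scaling. Its relative Cox7a2l fell by 2.32 as deposited. Cox6b1 fell by 1.47 as deposited, with 0.04 under trimmed-mean scaling, while the testis forms Cox6b2 and Cox7b2 averaged 0.853 and 0 TPM over all libraries and were not tested. Cox4i2, the form linked to low oxygen and outside the symbols chosen here, had 0.691, 9.39 and 1.89 TPM in the ETA sheets and was listed at 0 in all 3 epidermal sheets. It was called higher as deposited (limma adjusted p = 0.0265) and relative to the median gene (limma adjusted p = 0.00683), with no fold given against a group at 0. It passed the filter of 1 TPM only through the ETA sheets, and mostly through replicate 2, the library that stood apart. The 2 calls are therefore not independent of the filter and no conclusion is drawn from them.

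In complex V the summed TPM of the membrane ring that turns fell further than that of the catalytic head. The 3 genes Atp5g1, Atp5g2 and Atp5g3 encode the same mature c subunit behind different import signals, and their summed TPM was 282, 104 and 202 in the ETA sheets, against 1556, 1455 and 1468 in the epidermal sheets, 7.61-fold lower. Atp5g3 led with 78.1, 32.2 and 71.8 TPM in the ETA sheets, against 686, 654 and 580 TPM in the epidermal sheets (log2 fold change -3.47 ± 0.32 SE, limma adjusted p = 5.04e-05; -1.98 relative to the median gene). Atp5g1 and Atp5g2 had log2 fold changes of -2.86 and -2.73, so the 3 c-ring genes fell together, and each was called relative to the median gene as well. The 5 genes of the F1 head, which makes the ATP, summed to 734, 505 and 588 TPM in the ETA sheets, against 2391, 2349 and 2430 TPM in the epidermal sheets, 3.93-fold lower. The log2 ratio of ring to head was -1.38, -2.27 and -1.54 in the ETA sheets, against -0.62, -0.69 and -0.73 in the epidermal sheets, so it was lower in every ETA sheet (difference -1.05, exact permutation p = 0.1). The 7 genes of the stalks and the membrane part had a median log2 fold change of -1.80. Among them Atp5k, subunit e at the dimer interface and the most abundant gene of the complex by its mean over all 6 libraries, had 428, 150 and 394 TPM in the ETA sheets, against 761, 826 and 844 TPM in the epidermal sheets (log2 fold change -1.46 ± 0.37 SE, limma adjusted p = 0.00668). Among ETA sheets the values depended on the library, with replicate 2 far below the other 2, and under trimmed-mean scaling its value turned to 0.05.

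Within the F1 head 1 gene stood apart. Atp5a1, Atp5b, Atp5c1 and Atp5e, for the alpha, beta, gamma and epsilon subunits, had log2 fold changes between -2.57 and -2.46. Atp5b, the catalytic beta subunit, had 157, 117 and 122 TPM in the ETA sheets, against 729, 779 and 704 TPM in the epidermal sheets (log2 fold change -2.48 ± 0.17 SE, limma adjusted p = 1.87e-05). Atp5d, the delta subunit of the central stalk, had 283, 206 and 270 TPM in the ETA sheets, against 408, 350 and 383 TPM in the epidermal sheets. The groups were separate by a narrower margin, and the log2 fold change was -0.60 ± 0.18 (SE, limma adjusted p = 0.0163), the smallest fall of all called members. That call was lost without epidermal sheet replicate 1 (-0.55, limma adjusted p = 0.0596) or replicate 3 (-0.59, limma adjusted p = 0.0521). It was lost too, at -0.057, with the 100 most abundant genes removed before scaling (limma adjusted p = 0.751). Relative to the median gene Atp5d was called higher (0.90), as under trimmed-mean scaling (0.91). Atp5d over Atp5b gave a log2 ratio of 0.85, 0.82 and 1.14 in the ETA sheets, against -0.84, -1.15 and -0.88 in the epidermal sheets (difference 1.89, exact permutation p = 0.1). The delta subunit transcript was thus the more abundant of the pair in every ETA sheet and the less abundant in every epidermal sheet. Atp5s and Atp5sl carry the ATP5 name but encode a coupling factor and an assembly factor, and both were called lower at low levels, with means of 2.06 and 3.20 TPM in ETA sheets and 14.0 and 13.2 TPM in epidermal sheets.

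Of the 6 members called higher relative to the median gene, only Ndufa4 and Atp5d were called in all 15 other settings apart from the header names. Cox5a was called in 12, Ndufa6 and Cox8a in 9 each and Uqcrb in 7, the losses coming with a pseudocount of 5, a filter of 5 TPM, no variance trend, a replicate block or the absence of single libraries. In contrast Sdhd, Sdhc and Atp5g3 were called lower in all 15.

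Some genes of the same machinery fall outside the symbols chosen here, and these were looked up after their values were seen. Atpif1, the inhibitor that stops the ATP synthase from running in reverse, had 24.0, 8.76 and 15.9 TPM in the ETA sheets, against 230, 214 and 231 TPM in the epidermal sheets. It was 13.9-fold lower (log2 fold change -3.81 ± 0.32 SE, limma adjusted p = 3.61e-05), beyond any gene of complex V itself. Its log2 ratio to the summed complex V was -6.65, -7.22 and -6.92 in the ETA sheets, against -5.06, -5.10 and -5.08 in the epidermal sheets (difference -1.85, exact permutation p = 0.1), so the inhibitor was scarcer relative to the enzyme in every ETA sheet. Usmg5 and 2010107E04Rik, small proteins of the membrane part of the ATP synthase, had log2 fold changes of -1.51 and -1.66. Higd1a, which binds complex IV, fell by 1.15, whereas its relative Higd2a had 184, 117 and 154 TPM in the ETA sheets, against 255, 269 and 167 TPM in the epidermal sheets, which overlap (limma adjusted p = 0.0576).

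The promoters of the members were read for the motifs of factors known to drive nuclear respiratory genes, NRF1 and GABPA, and for those of YY1 and the CCAAT box. The window was the 250 bases before the start of the gene in RefSeq, build GRCm38.p6, and 69 of the 83 members had one. The NRF1 motif was searched on both strands as GCGC, any base, then TGCGC, and 18.8% of the members held it, against 4.23% of 27025 genes. GABPA, as CCGGAAG, was found in 17.4% of the members and 7.83% of all genes, YY1, as AAGATGGC, in 2.90% and 1.83%, and CCAAT in 44.9% and 37.5%. The median log2 fold change was -1.90 over the 13 tested members with the NRF1 motif and -1.88 over the 54 without. The windows of 3 members are shown, in lower case with motif matches on either strand in capitals. Ndufa4 rose and holds no match of the 4 motifs. Cox6a1, an abundant member that fell, holds NRF1, GABPA and CCAAT matches. Ndufb4 holds 3 NRF1 matches and 1 CCAAT match. No match says only that these letters are not in the window. All 3 lie on the minus strand, at chr6:11907451-11907700 for Ndufa4, chr5:115348959-115349208 for Cox6a1 and chr16:37654369-37654618 for Ndufb4, and are written 5′ to 3′ along the gene.
Ndufa4: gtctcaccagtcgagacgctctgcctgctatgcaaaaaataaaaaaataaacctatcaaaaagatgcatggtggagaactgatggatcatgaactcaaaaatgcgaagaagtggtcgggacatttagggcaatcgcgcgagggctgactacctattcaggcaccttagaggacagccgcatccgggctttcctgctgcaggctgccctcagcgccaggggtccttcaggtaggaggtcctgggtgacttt
Cox6a1: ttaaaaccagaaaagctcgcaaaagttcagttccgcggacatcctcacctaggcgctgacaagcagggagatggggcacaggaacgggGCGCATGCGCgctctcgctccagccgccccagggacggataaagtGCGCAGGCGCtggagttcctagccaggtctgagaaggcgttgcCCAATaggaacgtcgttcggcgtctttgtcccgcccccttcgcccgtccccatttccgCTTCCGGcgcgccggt
Ndufb4: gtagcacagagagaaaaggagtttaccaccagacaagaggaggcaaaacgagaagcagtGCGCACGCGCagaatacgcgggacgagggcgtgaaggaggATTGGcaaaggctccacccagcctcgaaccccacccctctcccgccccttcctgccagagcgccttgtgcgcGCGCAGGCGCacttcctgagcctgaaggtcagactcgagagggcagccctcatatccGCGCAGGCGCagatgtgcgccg
Ndufb4, an accessory subunit of complex I, had 172, 53.4 and 126 TPM in the ETA sheets, against 493, 429 and 546 TPM in the epidermal sheets (log2 fold change -2.20 ± 0.38 SE, limma adjusted p = 0.00105).

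Most genes of the other mitochondrial lists were called lower too, again beside the 63.6% of all genes called lower as deposited, and 18.8% lower and 29.1% higher relative to the median gene. Of 46 assembly factors, proteins that build the complexes without staying in them, 44 were tested. Of these 38 were called lower and 0 higher, with a median log2 fold change of -1.89. Relative to the median gene 11 were lower and 3 higher. Several called lower averaged under 1 TPM in ETA sheets, such as Ndufaf5, Sco1 and Sco2 (0.191, 0.228 and 0.472 TPM). They passed the filter through the epidermal sheets, as did Pdss1, Pdhx and Pprc1 in the lists below. The counts of lower calls are therefore not independent of the filter. Cox20 and Uqcc3, which serve complexes IV and III, moved most, with -3.87 and -3.75, and Uqcc2 was the most abundant over all 6 libraries (-0.88 as deposited, 0.62 under trimmed-mean scaling and -0.35, not called, without the 100 most abundant genes). Of 18 genes for mobile carriers and electron entry 17 were tested and 15 called lower (median -2.0; relative to the median gene 7 lower and 1 higher), among them Cycs, somatic cytochrome c, with 11.4, 11.9 and 9.95 TPM in the ETA sheets, against 58.7, 58.4 and 56.0 TPM in the epidermal sheets. Coq7 and Coq3, enzymes of ubiquinone synthesis, had log2 fold changes of -3.35 and -3.01, and Etfa, the most abundant of the list over all 6 libraries, -1.72. Coq3 averaged 0.850 TPM in ETA sheets and passed the filter through the epidermal sheets, so its call is not independent of the filter. Of 20 genes of the citric acid cycle and pyruvate entry 17 were called lower (median -2.46), and 13 were also lower relative to the median gene, where 3 were higher. Suclg2, of succinyl-CoA synthetase, and Dlat, of pyruvate dehydrogenase, had -3.84 and -3.46, whereas Cs, citrate synthase and the most abundant of the list over all 6 libraries, had -0.89 as deposited, 0.62 under trimmed-mean scaling and -0.35, not called, without the 100 most abundant genes.

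Among 8 carriers and channels of ATP export 7 were called lower (median -1.70), and 4 lower and 0 higher relative to the median gene. Slc25a4, the ADP/ATP carrier typical of muscle, had 18.3, 7.22 and 10.5 TPM in the ETA sheets, against 145, 146 and 190 TPM in the epidermal sheets (log2 fold change -3.71), and Slc25a5, the widely expressed carrier, fell by 2.23. The log2 ratio of Slc25a4 to Slc25a5 was lower in every ETA sheet (difference -1.59, exact permutation p = 0.1), and Vdac3, an outer membrane channel, fell by 2.69. Of 23 genes for import and inner membrane organisation 21 were called lower (median -1.83) and 6 lower and 1 higher relative to the median gene, led by Timm9 and Chchd3 with -3.54 and -2.71. Timm23, a translocase subunit and the most abundant of that list over all 6 libraries, had -1.34 as deposited and 0.16 under trimmed-mean scaling. Of 18 regulators of mitochondrial gene expression 16 were tested and 11 called lower (median -1.60), a share near that of all genes, and relative to the median gene 2 were lower and 5 higher. Those lower as deposited included Polg, the mitochondrial DNA polymerase (-2.77), Tfb1m (-2.67) and the RNA stability factor Slirp (-2.64). Tfb1m averaged 0.980 TPM in ETA sheets and passed the filter through the epidermal sheets, so its call is not independent of the filter. Polg and Slirp were the 2 called lower relative to the median gene, where Tfb1m was not called. The genes of NRF1 and GABPA themselves were called lower as deposited and were not called relative to the median gene, Nrf1 with 6.97, 6.23 and 6.61 TPM in the ETA sheets, against 14.1, 14.7 and 14.4 TPM in the epidermal sheets.

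Mitophagy genes had the highest median of the 7 lists, -0.36, a difference between lists that was not tested. Of 14 such genes 13 were tested, and 3 were called higher and 5 lower, where 10.1% of all genes were called higher and 63.6% lower. Relative to the median gene 7 were higher and 1 lower, where 29.1% of all genes were higher and 18.8% lower. Without Bnip3 and Bnip3l the list summed to 726, 654 and 721 TPM in the ETA sheets, against 954, 928 and 952 TPM in the epidermal sheets, and so was lower in every ETA sheet. Bnip3l, a receptor on the outer membrane that marks mitochondria for removal, had 542, 726 and 646 TPM in the ETA sheets, against 123, 141 and 140 TPM in the epidermal sheets. Its relative Bnip3 had 118, 136 and 146 TPM in the ETA sheets, against 28.6, 39.5 and 29.6 TPM in the epidermal sheets. Pink1, the kinase that labels depolarised mitochondria, had 308, 309 and 352 TPM in the ETA sheets, against 156, 135 and 158 TPM in the epidermal sheets. All 3 were higher in every ETA sheet than in any epidermal sheet, with log2 fold changes of 2.23 ± 0.17, 2.01 ± 0.20 and 1.11 ± 0.16 (SE, limma adjusted p = 2.76e-05, 7.33e-05 and 0.000442 for Bnip3l, Bnip3 and Pink1). The largest falls in the list were those of Phb2, the inner membrane receptor prohibitin (-2.40), and the deubiquitinase Usp30 (-2.02).

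**Figure D5:**
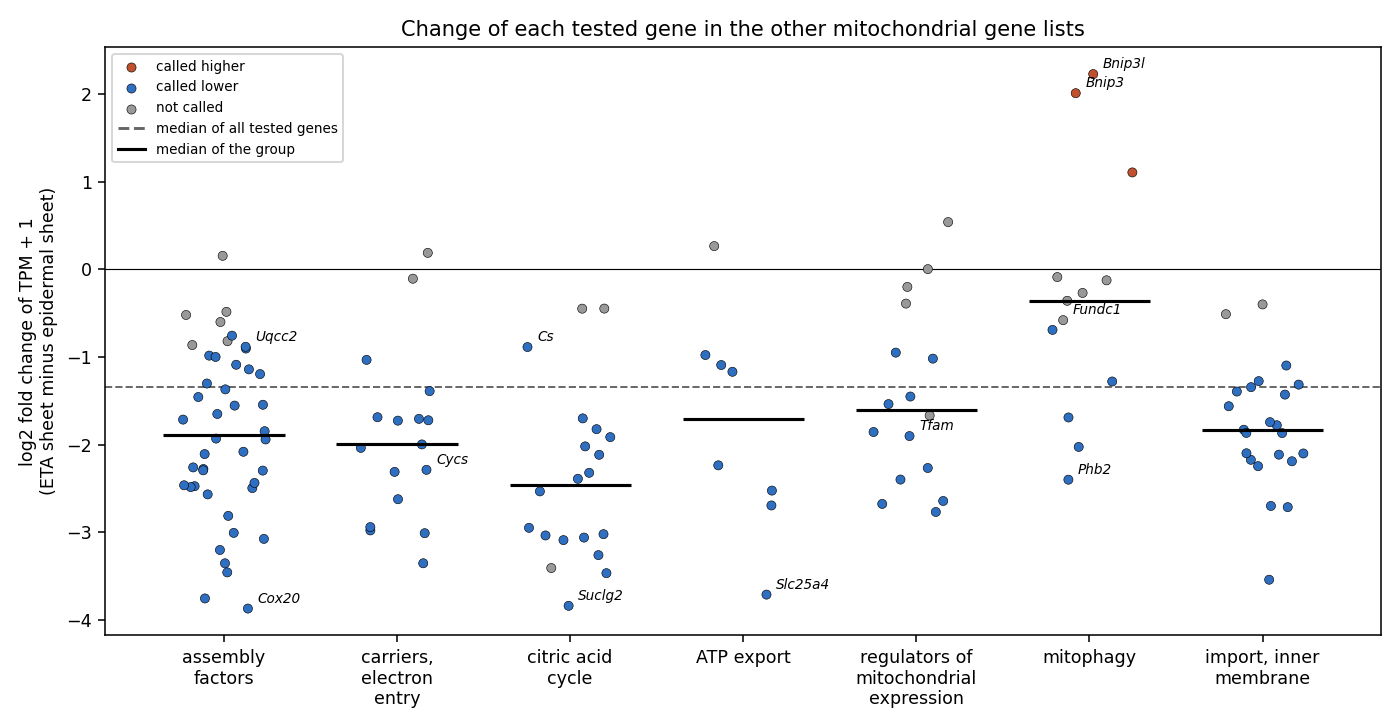
Log2 fold change of TPM + 1 (ETA sheet minus epidermal sheet) of each tested gene in 7 other mitochondrial gene lists, with colours for the limma call, black bars for the median of a list and a dashed line for the median of all tested genes at -1.34. Bnip3l and Bnip3, at 2.23 and 2.01, stand above 0 in the mitophagy list, whose median of -0.36 lies above the dashed line.

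Markers of other cells moved between the sheets too, and their part in these results was not tested. Langerhans cell markers summed to 70.0 ± 11.2 TPM in ETA sheets and 1357 ± 123 TPM in epidermal sheets, T cell markers to 8.00 ± 1.83 TPM in ETA sheets and 149 ± 4.39 TPM in epidermal sheets, and melanocyte markers to 1.38 ± 0.486 TPM in ETA sheets and 39.2 ± 1.77 TPM in epidermal sheets (mean ± SD, n = 3 each). All tested genes of these 3 lists, 6, 5 and 4 in number, were called lower, where 63.6% of all genes were. Relative to the median gene 5, 2 and 2 of them were called lower, where 18.8% of all genes were. The tested melanocyte genes, and Cd3e and Cd3d among T cell genes, each averaged under 1 TPM in ETA sheets. They passed the filter through the epidermal sheets. Sebaceous gland markers summed to 97.9 to 315 TPM in the ETA sheets, against 1589 to 2486 TPM in the epidermal sheets. Fibroblast markers went the other way, with 55.8 to 66.6 TPM in the ETA sheets, against 7.04 to 10.8 TPM in the epidermal sheets. All 5 were called higher in both fits, where 10.1% of all genes were as deposited and 29.1% relative to the median gene. Col1a1, Col3a1 and Lum averaged under 1 TPM in epidermal sheets and passed the filter through the ETA sheets. Skeletal muscle markers, which bear on the muscle forms of the subunits, summed to 3.51 to 5.88 TPM in the ETA sheets, against 0 to 2.30 TPM in the epidermal sheets, and Tnnt3 was at 0 in all 6 libraries. Adipocyte markers summed to 6.49 to 23.6 TPM in the ETA sheets, against 0 to 4.81 TPM in the epidermal sheets, and endothelial markers did not exceed 4.50 TPM in any library.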

How the data were processed

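The table deposited by the authors gives TPM for 37903 transcripts, of which 7951 carry no symbol. The submitters' processing notes name Salmon, Bowtie2 and build mm9, without versions or roles. Per the labels' protocols, libraries kept strand and were read as pairs of 25 bases. Near-identical copies of a gene could share such reads, so genes with close paralogs, as in the c-ring, are less certain. Each column was matched to its sample by the library number shared by title and header.

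All transcripts of a symbol were added up, and symbols averaging 1 TPM or more entered a fit of log2(TPM + 1) with limma 3.58.1 (R 4.3.3), a scale that understates changes of low genes, with a variance trend and Benjamini-Hochberg adjustment over all 11683 genes, called at 0.05. A second fit subtracted each library's median over those genes. For sums and ratios a two-sided exact permutation test was used (scipy 1.17.1). A fold is a ratio of mean TPM. The alternatives changed the pseudocount, the filter, the scaling, the variance trend or the groups (header names), added a replicate block, took the largest transcript, named 7786 of the 7951 transcripts by accession, and left out each library; leaving out Ndufa4 was added after seeing the data. On data simulated for ETA against epidermal sheets with 11683 genes, the fit called 5 of 100 genes changed 2-fold, 41 of 100 changed 4-fold and 1 of 11483 unchanged. Few genes were changed there, whereas 63.6% were called lower and 10.1% higher in the real data. The adjustment is stricter when few genes change, so these figures do not give the power or error rate of the real fit.

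Members and lists were chosen with earlier results of these data known. The text names by rule, per complex, the most abundant member, the extreme called members, those called higher in either fit, all of complex II and isoform sets, and from each other list the most abundant gene and up to 2 called genes per direction. Ndufv1, Ndufs3, Ndufa11, Ndufb4, Atp5b, the pairs used for gene ratios, Timm8b, Cycs, Nrf1, Gabpa, Pink1 and genes outside the chosen symbols were picked after their values were seen. Coordinates are of GRCm38.p6 from RefSeq, a build other than mm9, and serve the promoters and starts only.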

Additional observations from a re-analysis of the deposited data

How the results depend on the processing

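As deposited, 77 members were called lower and 1 higher; leaving out single libraries gave 74 to 78 lower and 1 higher. Trimmed-mean scaling gave 28 lower and 6 higher, and 49 genes of the other lists lower and 18 higher (114 and 3 as deposited). Without the 100 most abundant genes 0 members were higher, since Ndufa4 is one of the genes removed. With the header names as groups all counts of calls were 0. That grouping placed ETA sheet replicate 1, with 116730 TPM of granular and 201 TPM of basal markers, among the epidermal sheets. It placed epidermal sheet replicate 3, with 5350 TPM of granular and 15860 TPM of basal markers, among the ETA sheets. The cause of the lost calls was not tested. Relative to the median gene, 30 members lower and 6 higher became 53 and 3 with a pseudocount of 5, and the 6 higher became 2 with a filter of 5 TPM and 3 without the variance trend. Leaving out single libraries gave 22 to 31 lower and 2 to 8 higher, and in the other lists 30 to 45 lower and 13 to 20 higher (44 and 20 with all libraries). The lowest counts of members called higher, 3 and 2, came without epidermal sheet replicates 2 and 3, and the 13 without ETA sheet replicate 3. Trimmed-mean scaling turned the log2 fold change of Atp5d to 0.91, Atp5k to 0.052, Cox5a to 0.57, Cox6a1 to 0.052, Cox6b1 to 0.038, Cox7a2 to 0.43, Cox8a to 0.56, Ndufa6 to 0.57, Uqcrb to 0.58, Cs to 0.62, Timm23 to 0.16 and Uqcc2 to 0.62. With header names and relative to the median gene, Ndufa6 turned to -0.057 and Timm9 to 0.18. The complex sums and the 4 ratios kept their direction in every setting run, but no p under 0.1 was possible for them. Leaving out single libraries, the log2 ratio to complex V differed by 1.0 to 1.39 for complex I, -1.14 to -0.84 for complex II, 0.23 to 0.48 for complex III and 0.30 to 0.44 for complex IV. Title numbers were shared between groups, but same-numbered libraries did not deviate together (r of 0.02, -0.03 and -0.04); with a replicate block 76 members were lower and 1 higher as deposited, and 30 lower and 5 higher relative to the median gene. TPM keep no depth, so the counting error of low genes such as the muscle forms is unknown.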
